A study of Homo sapiens with 6 samples.

Results

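The 10 genes described here encode histone H3.3 and the chaperones that carry it to chromatin. They are the H3.3 genes H3-3A and H3-3B, the ATRX and DAXX pair, the HIRA complex genes HIRA, UBN1, UBN2 and CABIN1, and the histone donors ASF1A and ASF1B. They were chosen by name, as the rows of the count table whose Ensembl identifiers map to these symbols, and all 10 of the 60664 genes in the table were found and tested. Their transcripts were counted in U-2 OS cells, an osteosarcoma line grown in culture, transfected at 30 nM with either a control siRNA (siControl, titled siCTRL in the labels) or siRNA targeting SFPQ (siSFPQ), an RNA-binding protein of nuclear paraspeckles. Each condition had 3 libraries of polyadenylated RNA, which the study calls biological replicates. Which of the study's SFPQ and control siRNAs were used for these libraries is not given in the sources used here, and an effect of SFPQ loss and an off-target effect of the siRNA cannot be told apart. U-2 OS is a single polyploid line that is known to lack ATRX protein and to maintain its telomeres by recombination.

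H3.3 is the histone H3 variant that is made throughout the cell cycle and placed into chromatin outside replication. DAXX binds H3.3 with H4 and, with the remodeller ATRX, places it at telomeres, pericentromeres and silenced repeats, whereas HIRA, with UBN1 or UBN2 and CABIN1, places it at active genes and gaps in nucleosome cover. ASF1A and ASF1B carry newly made H3-H4 dimers to chaperones that include HIRA, with ASF1A acting mainly with HIRA and ASF1B linked to proliferating cells.

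The H3.3 genes sit on different chromosomes and encode the same protein from different codons. H3-3A (ENSG00000163041) lies at chr1:226061851-226072019 on the plus strand of GRCh38 and H3-3B (ENSG00000132475) at chr17:75776434-75785893 on the minus strand, each with 4 exons in its canonical transcript. Their coding sequences are both 411 bases long with the stop codon and differ at 88 positions (78.6% identity), while their translations of 136 amino acids have 0 differences. A processed pseudogene, H3P6 (ENSG00000235655, chr2:174719908-174720318), has 0 mismatches to the H3-3A coding sequence over its whole length of 411 bases. The first 120 coding bases are shown as an example of how far these rows can be told apart by sequence. All 3 stretches begin at the start codon, which for H3-3A and H3-3B is in exon 2, and capitals mark the bases that differ from H3-3A, of which H3-3B has 24 and H3P6 has 0.
H3-3A, chr1:226064352-226064471, plus strand: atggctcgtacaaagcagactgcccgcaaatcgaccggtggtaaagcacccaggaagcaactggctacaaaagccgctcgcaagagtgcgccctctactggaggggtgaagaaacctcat
H3-3B, chr17:75779055-75779174, minus strand: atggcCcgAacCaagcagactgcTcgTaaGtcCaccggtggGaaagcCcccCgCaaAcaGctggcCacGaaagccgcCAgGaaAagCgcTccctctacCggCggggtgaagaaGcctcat
H3P6, chr2:174719908-174720027, plus strand: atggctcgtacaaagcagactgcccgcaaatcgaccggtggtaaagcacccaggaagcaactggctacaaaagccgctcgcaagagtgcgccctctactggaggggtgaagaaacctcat

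Levels are given as CPM, that is, counts relative to 1e6 counts of the library after scaling between libraries with the TMM factors of edgeR. The libraries held between 46142855 and 47119203 counts in siControl and between 43469321 and 45543610 in siSFPQ, and the members had from 709 counts in a library (HIRA) to 34837 (H3-3B), far above the 3 counts (at most 0.069 CPM) taken as the floor. SFPQ itself stood at 489.2, 505.8 and 476.8 CPM in siControl and at 70.8, 82.6 and 67.9 CPM in siSFPQ. This was a fall of 2.73 on the log2 scale (SE 0.05, edgeR adjusted p = 6.3e-30), so the libraries matched their labels. Mesenchymal transcripts were abundant, with VIM (vimentin) at 924.4 ± 0.919 CPM, COL1A1 (type I collagen) at 2910 ± 145.6 CPM, SPARC (osteonectin) at 2222 ± 46.3 CPM and FN1 (fibronectin) at 1859 ± 174.5 CPM in siControl (SD, n = 3). The other type I collagen chain, COL1A2, was at 0.832 CPM. Of the osteoblast genes, RUNX2, the lineage's transcription factor, was at 57.6 CPM, SPP1 (osteopontin) at 18.3 CPM and ALPL (alkaline phosphatase) at 3.53 CPM, whereas SP7 and BGLAP (osteocalcin), markers of mature osteoblasts, were near 0 at 0.0146 and 0.00731 CPM. Epithelial EPCAM (5.09 CPM) and CDH1 (1.10 CPM), haematopoietic PTPRC (0.693 CPM) and endothelial PECAM1 (0.773 CPM) were low in siControl.

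After SFPQ depletion the H3.3 pathway genes moved in both directions: ATRX, HIRA and H3-3A transcripts fell, DAXX transcripts rose, and the other 6 genes did not pass the test. The fall of HIRA is that of its own row. When the overlapping gene C22orf39, which had more counts than HIRA, was added to it, the merged row rose. That left 2 lower members. The question was whether loss of SFPQ, studied here for its link to H3.3 deposition, was accompanied by altered transcript levels of the H3.3 machinery. With edgeR's quasi-likelihood test and Benjamini-Hochberg adjustment over 29022 genes, 1 of the 10 members was higher in siSFPQ and 3 were lower, taking 0.05 as the limit for the adjusted p; with scaling by library size alone 4 were higher and 3 lower. Lower members numbered 6 without a filter on low counts or with the replicate number as a block and 5 without siControl replicate 1, and higher members 3 with protein-coding genes only or without siControl replicate 2. Of the whole table tested, 22.4% were higher and 22.1% lower, and among the 10218 genes with a mean of at least 10 CPM, a range that holds every member, 31.4% were higher and 38.8% lower. In the main fit, with 1 higher and 3 lower members, the share called was therefore no larger than that of genes of comparable abundance. For the alternative fits, some with more members called, no such share of all genes is given here. None of the 10 exceeded a log2 fold change of 1.5 in either direction, a size that 10.3% of all genes tested passed together with the adjusted p. In 6 of the 10 genes the siControl and siSFPQ libraries did not overlap, against 52.3% of all genes tested and 74.8% of those with at least 10 CPM. The median log2 fold change of the 10 members was -0.10, beside 0.02 over all genes and -0.03 over the genes with at least 10 CPM. Without regard to sign, the median log2 fold change was 0.139 for the members and 0.221 for genes with at least 10 CPM, a size that ATRX (0.55), HIRA (0.27) and DAXX (0.24) exceeded. In bulk RNA a lower level in every cell and fewer cells with the transcript cannot be told apart.

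**Figure D1:**
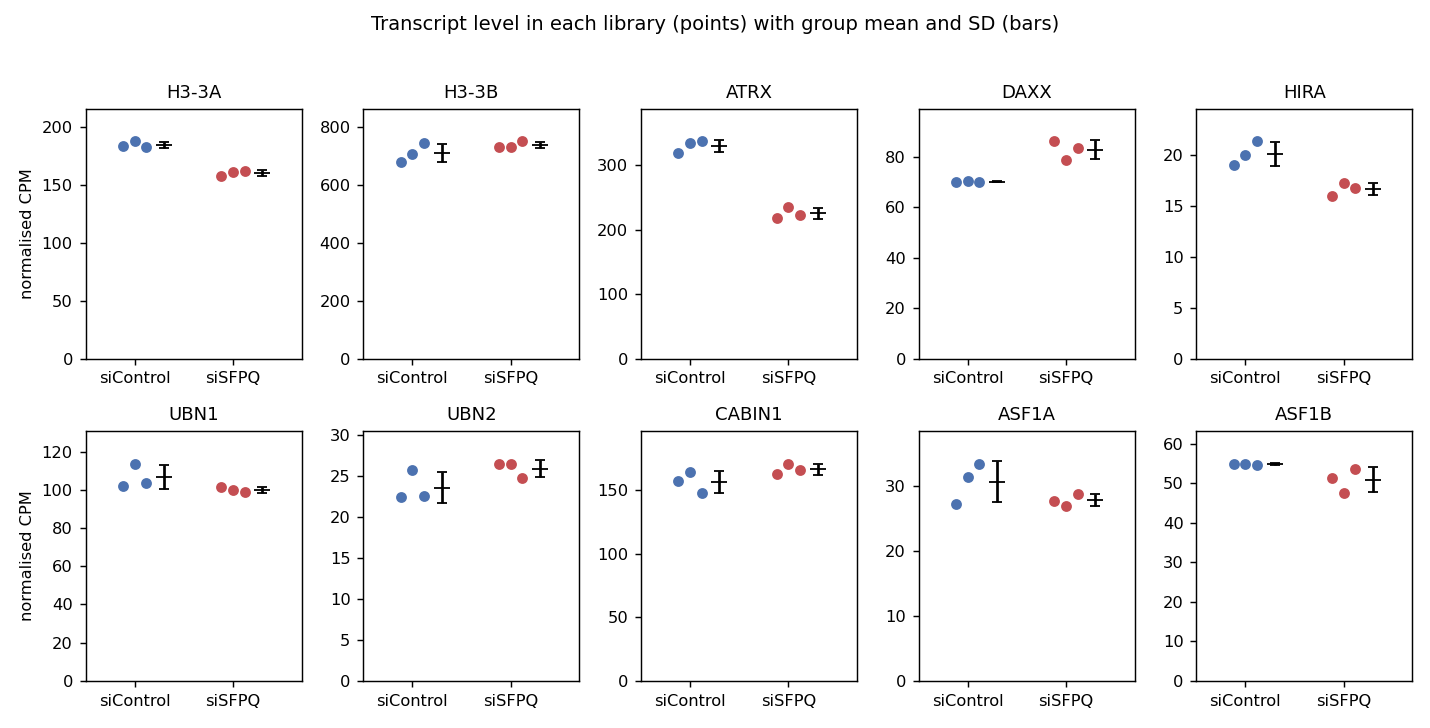
Each panel plots 1 gene's normalised CPM (y axis from 0) in the 3 siControl (blue) and 3 siSFPQ (red) libraries, with the group mean and SD as black bars. ATRX, H3-3A and HIRA lie lower and DAXX higher in every siSFPQ library, while the H3-3B points of both conditions lie between 680.7 and 751.1 CPM. UBN1 and ASF1B, which were not called, also lie lower in every siSFPQ library, by small gaps.

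**Figure D2:**
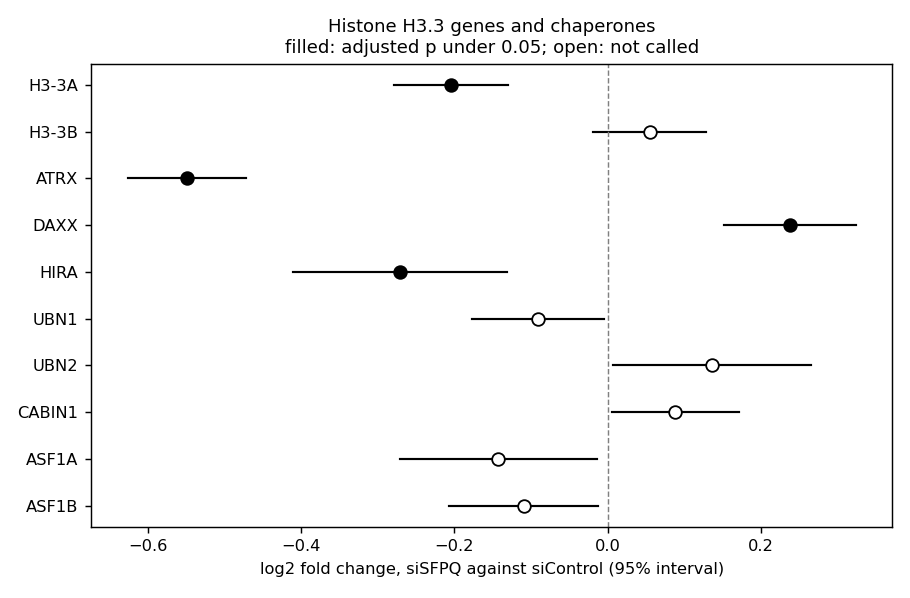
Log2 fold change of the 10 genes in siSFPQ against siControl (x axis) with 95% intervals, filled where the adjusted p of edgeR was under 0.05. ATRX (-0.55) stands farthest from 0, and DAXX (0.24) is the only filled point on the right.

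Of the pair of H3.3 genes, H3-3A fell and H3-3B was not called. H3-3A was counted at 183.4, 187.3 and 182.5 CPM in siControl and at 157.2, 160.9 and 161.9 CPM in siSFPQ. All siSFPQ libraries lay below all siControl libraries, with a gap several times the SD of either group (2.56 and 2.46 CPM), and the fall of 0.20 on the log2 scale (SE 0.04, 95% interval -0.28 to -0.13) had an edgeR adjusted p of 1.8e-05. H3-3B was counted at 680.7, 707.4 and 745.2 CPM in siControl and at 731.3, 733.3 and 751.1 CPM in siSFPQ. The highest siControl library lay above 2 of the siSFPQ libraries, and the log2 fold change of 0.05 (95% interval -0.02 to 0.13) was not called (edgeR adjusted p = 0.24). Compared directly, the log2 ratio of H3-3A to H3-3B counts was -1.89, -1.92 and -2.03 in siControl and -2.22, -2.19 and -2.21 in siSFPQ. These groups did not overlap, and their difference of -0.26 had the smallest exact two-sided permutation p that 3 against 3 libraries allow, 0.1 (0.13 adjusted over 4 ratios).

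The sum of both genes depended on the scaling between libraries. With TMM it was 864.1, 894.7 and 927.7 CPM in siControl and 888.5, 894.2 and 913.0 CPM in siSFPQ, that is, 895.5 ± 31.8 against 898.6 ± 12.8 CPM (SD, n = 3; exact two-sided permutation p = 1). The siSFPQ values all fell inside the siControl range. With scaling by library size alone the sum was 855.0, 868.6 and 903.9 CPM in siControl and 906.6, 918.6 and 929.7 CPM in siSFPQ. Every siSFPQ library then lay above every siControl library (exact two-sided permutation p = 0.1, the smallest possible), and H3-3B was called higher (log2 fold change 0.12, edgeR adjusted p = 0.0042). Under this scaling the sum differed by 0.069 on the log2 scale, beside a median log2 fold change of 0.083 over all genes tested. The share of H3-3A in this sum was 21.2%, 20.9% and 19.7% in siControl and 17.7%, 18.0% and 17.7% in siSFPQ. The groups did not overlap, and the exact two-sided permutation p of 0.1 is the smallest that 3 against 3 libraries can give. The SD of the share was 0.827 percentage points in siControl and 0.164 in siSFPQ. The share rests on an H3-3A row of whose stretches of 150 bases 56.9% occur in transcripts of other genes, beside 0% for H3-3B. With the H3 pseudogene rows added, the TMM-scaled sum was 973.4 ± 33.5 CPM in siControl and 963.3 ± 13.5 CPM in siSFPQ (SD, n = 3, exact two-sided permutation p = 0.7).

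The row of the pseudogene H3P6 moved like H3-3A. It was counted at 68.3, 73.9 and 71.1 CPM in siControl and at 56.3, 61.6 and 58.3 CPM in siSFPQ, with no overlap, and fell by 0.28 on the log2 scale (SE 0.05, edgeR adjusted p = 4.5e-06). Of all stretches of 150 bases, the read length, in the canonical H3-3A transcript, 56.9% also occur in transcripts of other genes, 28.4% in H3P6, so part of the reads of these rows cannot be assigned between them by sequence. A share of equal size, 28.4%, occurs in ENSG00000290018, and not all of these stretches are the ones found in H3P6. This lncRNA is annotated across the H3P6 locus (chr2:174719821-174720853, plus strand) and has no row among those analysed here. The gene counts came from STAR, and its treatment of reads that match several places is not given in the sources used here. With the rows of all 47 H3 pseudogenes added to H3-3A, the level was 262.3 ± 5.30 CPM in siControl and 224.7 ± 4.73 CPM in siSFPQ (SD, n = 3), a fall of 0.22 on the log2 scale (edgeR adjusted p = 4.2e-06). None of the 150-base stretches of the canonical H3-3B transcript occurs in an annotated transcript of another gene.

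ATRX, the SNF2-type remodeller that partners DAXX, showed the largest change of the 10. It was counted at 318.5, 333.5 and 336.5 CPM in siControl and at 217.9, 234.6 and 223.0 CPM in siSFPQ. The groups were far apart, and the fall of 0.55 on the log2 scale (SE 0.04, 95% interval -0.63 to -0.47), a change of -31.7%, had an edgeR adjusted p of 3.4e-14. ATRX (ENSG00000085224) spans 281.4 kb on the minus strand of chromosome X and has 35 exons, the longest locus of the set. Its transcripts were abundant although the line is known for the absence of the protein; counts per gene do not show which exons the reads covered, and no other row shares exons with it.

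DAXX, the H3.3-specific chaperone, went the other way. It was counted at 70.3, 70.4 and 70.0 CPM in siControl and at 86.2, 78.7 and 83.5 CPM in siSFPQ. The siControl libraries were nearly equal, every siSFPQ library lay above them, and the rise of 0.24 on the log2 scale (SE 0.04, 95% interval 0.15 to 0.32), or 17.9%, had an edgeR adjusted p of 1.8e-05. DAXX (ENSG00000204209) is a compact gene of 4.46 kb and 8 exons on the minus strand of chromosome 6. A further gene on the same strand, ENSG00000285064, shares 14.3% of its exon bases and had 0 counts in all libraries.

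The ratio of ATRX to DAXX counts within a library, which needs no scaling between libraries, therefore moved more than either gene. The counts of ATRX were 4.69 times those of DAXX in siControl and 2.72 times in siSFPQ, with log2 ratios of 2.18, 2.24 and 2.27 against 1.34, 1.58 and 1.42. The difference of -0.79 was larger than the SDs of 0.04 and 0.12 (exact two-sided permutation p = 0.1, the smallest possible; 0.13 adjusted over the 4 ratios compared). Both genes that form this ratio were called on their own, so the ratio restates their opposite directions.

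HIRA, the scaffold of the complex that places H3.3 at active genes, was lower in siSFPQ. It was counted at 19.0, 19.98 and 21.3 CPM in siControl and at 16.0, 17.2 and 16.7 CPM in siSFPQ. The groups did not overlap, and the fall of 0.27 on the log2 scale (SE 0.07, 95% interval -0.41 to -0.13) had an edgeR adjusted p of 0.0014. HIRA (ENSG00000100084) spans 116.8 kb on the minus strand of chromosome 22, and C22orf39 (ENSG00000242259) on the same strand shares 2857 of its exon bases, 66.5% of the HIRA exons. C22orf39 was higher in siSFPQ, at 44.3 ± 1.14 CPM in siControl and 55.0 ± 0.88 CPM in siSFPQ (SD, n = 3; log2 fold change 0.31, edgeR adjusted p = 6.8e-07). Merged into 1 row, the 2 genes stood at 62.7, 65.6 and 64.7 CPM in siControl and at 71.8, 71.3 and 71.8 CPM in siSFPQ, a rise of 0.16 on the log2 scale (edgeR adjusted p = 0.0024). HIRA thus fell as a row of its own and was part of a rise as a merged row. Most counts of the merged row came from C22orf39, so its rise is not a measure of HIRA alone. How STAR was set to assign reads of the shared exons is not given in the sources used here.

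**Figure D3:**
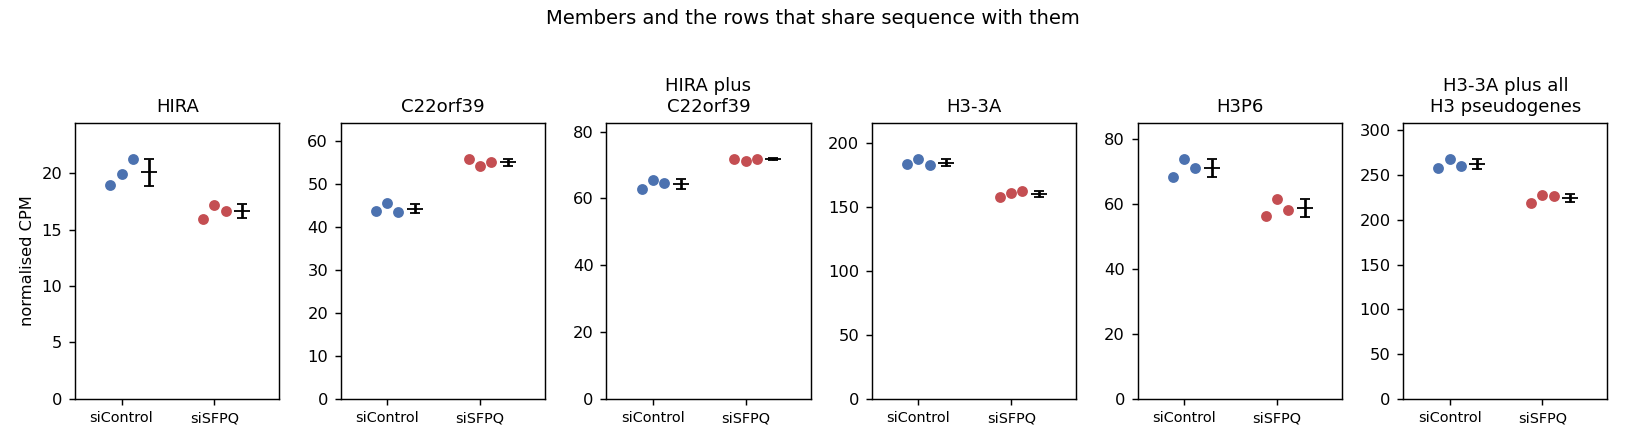
Normalised CPM (y axes from 0) in the 3 siControl (blue) and 3 siSFPQ (red) libraries, with group mean and SD, for HIRA, the overlapping gene C22orf39 and their sum, and for H3-3A, the pseudogene H3P6 and H3-3A with all H3 pseudogene rows. The sum of HIRA and C22orf39 rises from 64.3 to 71.6 CPM while HIRA alone falls, whereas H3-3A lies lower in siSFPQ with or without the pseudogene rows.

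The other subunits of the HIRA complex did not pass the test. UBN1, which binds H3.3 directly, was at 102.2, 113.7 and 103.6 CPM in siControl and at 101.7, 99.6 and 98.7 CPM in siSFPQ. Its groups did not overlap but lay close together (log2 fold change -0.09, 95% interval -0.18 to -0.01, edgeR adjusted p = 0.081). Its paralog UBN2 was at 22.4, 25.8 and 22.6 CPM in siControl and at 26.5, 26.5 and 24.7 CPM in siSFPQ, with overlapping groups (log2 fold change 0.14, 95% interval 0.01 to 0.26, edgeR adjusted p = 0.081). CABIN1, the largest accessory subunit, was at 157.6, 164.7 and 147.7 CPM in siControl and at 162.5, 171.0 and 166.1 CPM in siSFPQ, again overlapping (log2 fold change 0.09, 95% interval 0.01 to 0.17, edgeR adjusted p = 0.077). The log2 ratio of UBN1 to UBN2 counts was 2.19, 2.14 and 2.20 in siControl and 1.94, 1.91 and 1.997 in siSFPQ. These groups did not overlap, and their difference of -0.23 had an exact two-sided permutation p of 0.1 (0.13 adjusted).

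The histone donors also did not pass. ASF1A was at 27.2, 31.3 and 33.4 CPM in siControl and at 27.7, 26.8 and 28.7 CPM in siSFPQ. The lowest siControl library lay within the siSFPQ range (log2 fold change -0.14, 95% interval -0.27 to -0.01, edgeR adjusted p = 0.065). ASF1B was at 55.0, 54.9 and 54.7 CPM in siControl and at 51.4, 47.5 and 53.7 CPM in siSFPQ, where every siSFPQ library lay below the siControl libraries (log2 fold change -0.11, 95% interval -0.21 to -0.01, edgeR adjusted p = 0.062). Their log2 ratio was -0.85 ± 0.16 in siControl and -0.87 ± 0.04 in siSFPQ (SD, n = 3; exact two-sided permutation p = 0.9). Across the 6 members without a call, the 95% intervals of the log2 fold change reached from -0.27 to 0.26, and 5 of the 6 had an unadjusted edgeR p under 0.05. Each of the 6 passed the adjusted threshold in 2 to 5 of 13 alternative fits, in the same direction.

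**Figure D4:**
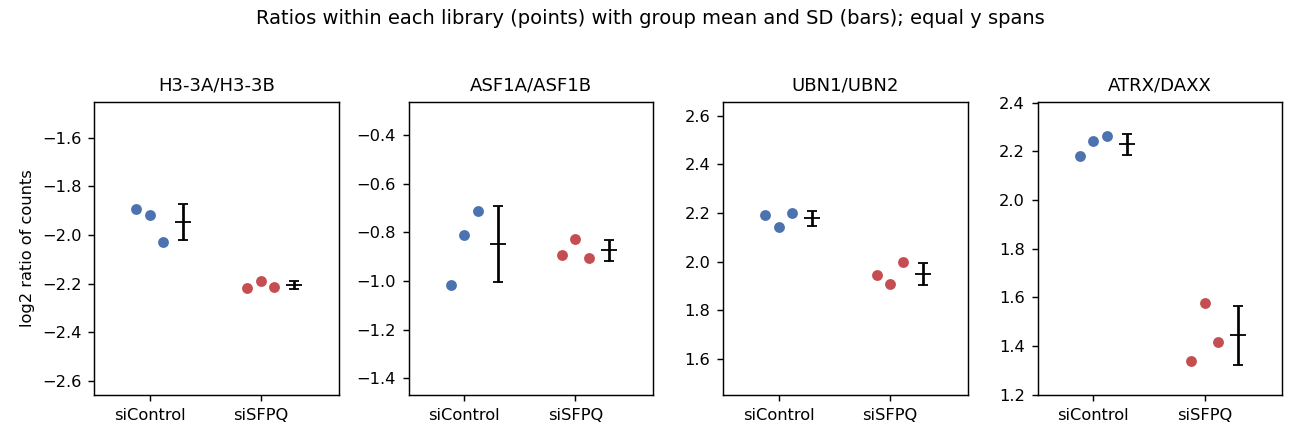
Log2 ratio of counts within each library (y axes of equal span) for the 4 gene pairs, with points for the 3 siControl (blue) and 3 siSFPQ (red) libraries and black bars for mean and SD. ATRX/DAXX, H3-3A/H3-3B and UBN1/UBN2 lie lower in every siSFPQ library, and the ASF1A/ASF1B groups overlap.

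For comparing genes with each other, CPM was divided by the length of the canonical transcript in kb. On this scale of level per length the order in siControl was H3-3B (262.9 CPM per kb), H3-3A (172.3), ASF1B (32.5), ATRX (29.5), DAXX (27.5), CABIN1 (21.7), UBN1 (16.5), ASF1A (12.6), HIRA (4.95) and UBN2 (1.604). No neighbours in this order overlapped between their siControl libraries. In siSFPQ, DAXX (32.4 ± 1.47 CPM per kb) stood above ATRX (20.2 ± 0.769), the reverse of siControl. Divided instead by the length of all annotated exons, ATRX (14.5 CPM per kb) was below DAXX (22.8) and CABIN1 (16.7) in siControl too, so the place of ATRX rests on the transcript assumed, while the first 3 and the last 4 places were the same. The place of HIRA comes from a row that shares most of its exon bases with C22orf39. That of H3-3A comes from a row of whose stretches of 150 bases 56.9% occur in transcripts of other genes.

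Exon overlaps of the other members were small. ASF1A shares 7.92% of its exon bases with MCM9 on the opposite strand, and MCM9, a helicase gene, fell by 0.29 on the log2 scale (edgeR adjusted p = 0.0017). The opposite-strand overlaps of H3-3B with UNK (2.92%), of ASF1B with ENSG00000267783 (3.58%), of H3-3A with H3-3A-DT (1.25%) and of UBN1 with GLYR1 (0.71%) were with genes that were not called or not tested. The microRNA gene MIR4738 takes up 1.42% of the H3-3B exons on the same strand. The kit is described in the study as stranded, but the strand setting of the counting is not given in the sources used here. A lncRNA inside CABIN1 that shares 0 exon bases with it, ENSG00000232545, rose from 0.978 to 2.52 CPM (log2 fold change 1.36, edgeR adjusted p = 2.4e-06).

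Around the 10 members, 83 genes of 6 lists that take part in H3 supply, deposition or reading were examined, of which 72 were tested. In siSFPQ 6 of them were higher and 30 lower, or 14 higher and 24 lower with scaling by library size alone. The 64 with a mean of at least 10 CPM had 6 higher and 28 lower, beside 31.4% and 38.8% of all genes at that level. The 8 below it, OIP5 and the other H3 genes, had 0 higher and 2 lower, beside 22.4% and 22.1% of all genes tested. In the 6 lists 0 of the calls exceeded a log2 fold change of 1.5. The counts of single lists below stand beside these same shares and a median of -0.03 over the genes with at least 10 CPM. With scaling by library size alone the median of all genes tested was 0.08, and no share of all genes called is given here for it.

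Genes for H3-H4 supply and replication-coupled assembly had 1 higher and 10 lower of 13 tested and a median log2 fold change of -0.19. With scaling by library size alone 1 was higher and 6 were lower (median -0.13), and without siSFPQ replicate 1 the counts were 1 and 7 (median -0.15). TONSL and MMS22L, which form a complex that reads new H4 behind forks, went opposite ways. TONSL rose from 108.0 ± 3.87 to 155.9 ± 2.90 CPM (log2 fold change 0.53, edgeR adjusted p = 1.8e-13), while MMS22L fell from 49.4 ± 1.44 to 34.0 ± 2.13 CPM (-0.54, edgeR adjusted p = 1.1e-10). The other large falls were TLK1 (-0.46), the kinase of the ASF1 proteins, DNAJC9 (-0.41), a histone co-chaperone, and MCM2 (-0.34), the helicase subunit that also holds H3-H4. IPO4, a histone importer, had 8 counts in total and was not tested. Overlaps with other genes were not examined for IPO4, so its count alone does not show that its transcripts were absent.

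Chaperones and remodellers coupled to transcription had 2 higher and 2 lower genes of 14 tested (median 0.01). With scaling by library size alone 7 were higher and 2 lower (median 0.07), and without siSFPQ replicate 2 the counts were 2 and 4. SUPT16H, a subunit of the FACT chaperone, rose by 0.17 and GRWD1, a histone-binding protein, by 0.30 on the log2 scale. DEK, a chromatin protein described as an H3.3 chaperone, fell from 313.8 ± 12.1 to 238.1 ± 10.6 CPM (-0.40, edgeR adjusted p = 2.0e-10), and ANP32E, which removes H2A.Z, fell by 0.38. The other FACT subunit, SSRP1, had a log2 fold change of -0.02 (95% interval -0.09 to 0.05).

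Of 21 partners of ATRX and DAXX in PML bodies and heterochromatin, 3 were higher and 6 lower (median -0.02). With scaling by library size alone the balance turned to 6 higher and 5 lower (median 0.04). The H3K9 methyltransferases EHMT2 and EHMT1, which work as a pair, moved oppositely. EHMT2 rose from 82.4 ± 1.604 to 106.1 ± 3.48 CPM (0.36, edgeR adjusted p = 2.9e-09), and EHMT1 fell from 73.7 ± 3.92 to 54.4 ± 2.21 CPM (-0.44, edgeR adjusted p = 1.0e-09). PML, the scaffold of the bodies in which DAXX resides, rose by 0.15, and SUMO3 (-0.34) and the HP1 gene CBX1 (-0.33) fell. SETDB1, TRIM28 and ATF7IP, which act with DAXX and ATRX in silencing repeats, had log2 fold changes of 0.04, 0.00 and -0.02 and were not called.

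Readers and modifiers of H3.3 and factors that recruit HIRA had 0 higher and 6 lower genes of 12 tested (median -0.11). With scaling by library size alone 0 were higher and 5 lower (median -0.05). NSD2, an H3K36 methyltransferase, fell from 368.1 ± 10.5 to 233.2 ± 7.96 CPM (-0.66, edgeR adjusted p = 2.1e-16), a larger change than that of any member. Its paralog NSD3 fell by 0.49, the acetyltransferase gene CREBBP by 0.39 and the mitotic kinase gene AURKB by 0.22 on the log2 scale. NSD1 (-0.04), SETD2 (-0.02) and the H3.3 K36me3 reader ZMYND11 (0.02) were not called.

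All 5 genes for CENP-A, the centromeric H3 variant, and its loading were lower in siSFPQ (median -0.36). CENPA fell from 70.2 ± 2.95 to 53.9 ± 2.12 CPM (-0.38, edgeR adjusted p = 1.2e-08), and its chaperone HJURP fell by 0.17. The licensing factor MIS18A (-0.53) was lower in every siSFPQ library, whereas the libraries of OIP5 overlapped. OIP5 (-0.36) was not called without siControl replicate 1 (-0.29) or 3 (-0.27) or without siSFPQ replicate 2 (-0.32) or 3 (-0.33), with edgeR adjusted p from 0.072 to 0.097.

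The other H3 genes contributed little to these libraries, together 10.7 ± 0.513 CPM in siControl and 9.63 ± 0.359 CPM in siSFPQ, beside 895.5 CPM for the H3.3 genes in siControl. Replication-dependent histone transcripts end in a stem-loop without a poly(A) tail, and these libraries were made from polyadenylated RNA, so these values do not measure the supply of replicative H3. Of 17 genes, 7 were tested and only H3C10 was called, at 4.45 ± 0.235 CPM in siControl and 3.297 ± 0.263 CPM in siSFPQ (-0.43, edgeR adjusted p = 0.0055). Without siSFPQ replicate 1 the log2 fold change of H3C10 was -0.35 and was not called (edgeR adjusted p = 0.054), and without siControl replicate 1 the low-count gene H3Y1 was called higher (1.22, edgeR adjusted p = 0.019).

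**Figure D5:**
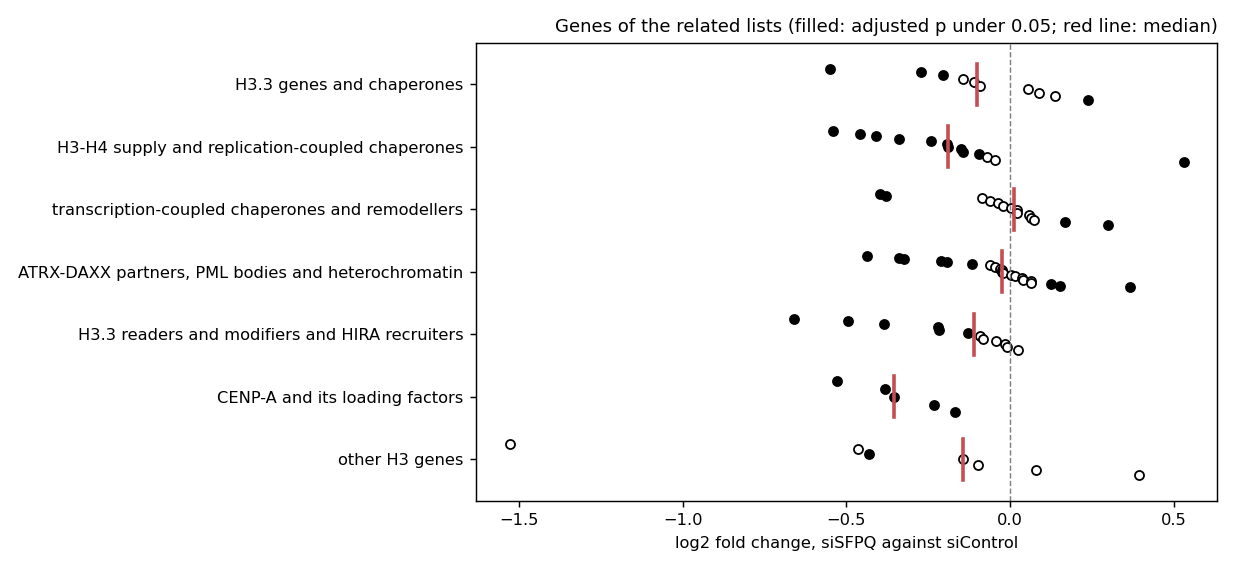
Log2 fold change in siSFPQ against siControl (x axis) of each tested gene of the H3.3 set and the 6 related lists (rows), filled where the edgeR adjusted p was under 0.05, with the list median as a red line. The H3.3 genes and chaperones lie between -0.55 and 0.24, all 5 CENP-A genes lie left of 0, and TONSL (0.53) stands apart from the rest of its list.

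Markers of the line and of other cell types also moved between the conditions. SPP1 fell from 18.3 to 7.27 CPM, FN1 from 1859 to 1284 CPM, COL1A1 from 2910 to 2279 CPM and SPARC from 2222 to 1977 CPM, while VIM rose from 924.4 to 1155 CPM. BGLAP, at 0, 0 and 1 counts in siControl and 5, 6 and 6 counts in siSFPQ, was called higher (edgeR adjusted p = 0.020). RUNX2, at 57.6 and 60.1 CPM, ALPL, at 3.53 and 3.33 CPM, and COL1A2 were not called, and SP7 had too few counts to be tested. CDH1 rose from 1.10 to 1.87 CPM and PTPRC fell from 0.693 to 0.226 CPM, whereas EPCAM and PECAM1 were not called. The part of these shifts in the values of the H3.3 genes and chaperones was not tested.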

How the data were processed

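Polyadenylated RNA of U-2 OS cells (3 siControl and 3 siSFPQ libraries) was sequenced as paired 150-base reads. The authors checked reads with FastQC, aligned and counted them with STAR 2.7.9a and the Ensembl GRCh38 annotation, and deposited raw counts per Ensembl gene for each library; the strand and multi-mapping settings of the counting are not given in the sources used here. All 6 columns were assigned by name, and 0 were left unused.

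Counts were analysed with edgeR 4.0.16 in R 4.3.3 (quasi-likelihood test, TMM, genes with at least 10 counts in total, no covariates, Benjamini-Hochberg over 29022 genes, threshold 0.05). Sums and within-library ratios were tested by exact two-sided permutation. DESeq2 1.42.0, other scalings and filters, the replicate number as a block and each library left out were tried as alternatives. Intervals cover the fit's error only. Symbols, exons and overlaps came from GENCODE 44, which held 99.67% of the identifiers, and sequences from its GRCh38 genome.

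The members and lists were chosen with earlier results of these data known. Named were the members, SFPQ, genes overlapping a member, the cell type markers and, per list, up to 4 rises and 4 falls largest by log2 fold change with an adjusted p under 0.05, a mean of at least 1 CPM and groups that did not overlap; some genes that this rule names are not reported here. Other genes named (H3P6, IPO4, SSRP1, SETDB1, TRIM28, ATF7IP, NSD1, SETD2, ZMYND11, OIP5, H3Y1 and ENSG00000290018) and the level of 10 CPM were chosen after their values were seen.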

Additional observations from a re-analysis of the deposited data

How the results depend on the processing

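The calls of ATRX, DAXX and H3-3A kept their direction and side of the threshold under every alternative run, with log2 fold changes from -0.59 to -0.49, from 0.22 to 0.30 and from -0.22 to -0.14. HIRA did so except when its row was merged with C22orf39, an alternative chosen after seeing the data. That merged row, most of whose counts came from C22orf39, was at 0.16. The other 6 members kept their direction but passed the threshold in some fits, with log2 fold changes from -0.12 to -0.03 for UBN1, 0.10 to 0.20 for UBN2, 0.05 to 0.15 for CABIN1, -0.22 to -0.08 for ASF1A, -0.14 to -0.05 for ASF1B and 0.02 to 0.12 for H3-3B. Leaving out 1 library moved some of these by over 1.5 times. Without siControl replicate 1 ASF1A was at -0.22 and H3-3B at 0.02, without siControl replicate 2 UBN1 was at -0.04 and UBN2 at 0.20, without siControl replicate 3 CABIN1 was at 0.05, ASF1A at -0.08 and H3-3B at 0.09, and without siSFPQ replicate 2 CABIN1 was at 0.05. Higher members numbered 4 with scaling by library size alone, 3 with protein-coding genes only, 2 with merged rows (the row of HIRA with C22orf39 added) and 2 with a replicate block, against 1. Lower members numbered 6 without a filter on low counts and 6 with the block, and 2 with merged rows, against 3. With a further log2 threshold of 1.5, members and list genes had 0 calls in both directions. Leaving out 1 library gave 1 to 3 higher and 3 to 5 lower members. Higher members numbered 3 without siControl replicate 2 (UBN2 and CABIN1 added) and 2 without siControl replicate 3 (H3-3B added), without siSFPQ replicate 1 (CABIN1 added) or without siSFPQ replicate 3 (UBN2 added). Lower members numbered 5 without siControl replicate 1 (UBN1 and ASF1A added), and UBN1 (edgeR adjusted p = 0.046) was also called without siControl replicate 3 and ASF1B (0.032) without siSFPQ replicate 3. Library size alone moved the median of all genes from 0.02 to 0.08, the higher list genes from 6 to 14 and the lower from 30 to 24, and the H3.3 sum from 0.0054 to 0.0686 on the log2 scale. The ASF1A/ASF1B difference ranged from -0.11 to 0.04 with 1 library left out. H3C10 was not called without siSFPQ replicate 1 (-0.35, edgeR adjusted p = 0.054). Same-numbered libraries deviated together only weakly (r of -0.00327, 0.0881 and 0.0547 for replicates 1, 2 and 3). Differently numbered ones had r from -0.0799 to 0.0252. The numbers were not treated as pairs in the main fit, and whether they mark pairs is not settled by these values. The cause of these differences was not tested.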
